A study of Mus musculus with 12 samples.

Results

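Immunoproteasome and peptide loading genes make and load the peptides that MHC class I molecules show at the cell surface. The 10 genes described here, Psmb8, Psmb9, Psmb10, Psme1, Psme2, Tap1, Tap2, Tapbp, Erap1 and Nlrc5, were taken by gene symbol from the 24062 genes of each count file. Libraries came from liver and gastrocnemius, a calf muscle, of mice carrying R135W on both copies of Mars2 and of wild type mice. Mars2 encodes the mitochondrial methionyl-tRNA synthetase. The groups were liver R135W and gastrocnemius R135W (animals 5, 7 and 12), and liver WT and gastrocnemius WT (animals 6, 8 and 9). Every animal was a C57BL/6N female on chow, aged 9.0, 7.4 and 8.6 weeks in R135W animals 5, 7 and 12, and 9.0, 9.0 and 7.4 weeks in WT animals 6, 8 and 9. The labels give no litter or day, so the p-values measure the spread between these animals, whatever its source.

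In most cells the proteasome cuts proteins with the catalytic subunits Psmb5, Psmb6 and Psmb7. Interferons induce the replacements Psmb8, Psmb9 and Psmb10, which form the immunoproteasome, and the PA28 cap of Psme1 and Psme2, which speeds release of peptides. TAP, a dimer of Tap1 and Tap2, carries peptides into the endoplasmic reticulum, where Erap1 trims them and tapasin (Tapbp) holds the empty class I molecule at the transporter. Nlrc5 is a transactivator of class I genes and of several partners in this pathway.

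In liver, Psmb8, Tap1, Tap2 and Tapbp rose in R135W animals in edgeR's test, by 0.64 to 1.17 on the log2 scale, while Psmb5, Psmb6 and Psmb7 did not pass the test. DESeq2 also called Psmb9 and Psmb10 in liver. In gastrocnemius, Psmb9 rose by 0.89 and no other gene of the 10 passed in edgeR; DESeq2 also called Psmb8 and Nlrc5 there. Of all genes tested, edgeR called 2.76% as higher in liver R135W and 0.542% as higher in gastrocnemius R135W. The share that DESeq2 called is not given here. The tissues themselves differed far more: all 10 genes were higher in WT liver than in WT gastrocnemius, by 1.61 to 4.05 on the log2 scale. Most genes differed between the tissues, 82.1% in either direction, and 40.9% were higher in WT liver. Erap1 had the fold change nearest 0 of the 10 in both tissues.

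Positions are those of the deposited annotation (mm10). Psmb9 (chr17:34182099-34187330, minus strand), Tap1 (chr17:34187556-34197225), Psmb8 (chr17:34198195-34201454) and Tap2 (chr17:34204479-34216321) lie side by side in 34223 bases with no other annotated gene between them. Tapbp lies on the same chromosome at chr17:33919478-33929290. Psme1 (chr14:55578494-55581527) and Psme2 (chr14:55587440-55591101, minus strand) are 5912 bases apart. Psmb10 (chr8:105935728-105938392, minus strand), Nlrc5 (chr8:94472763-94527272) and Erap1 (chr13:74639872-74691875) stand alone. Of these genes, Psme1 shares 4 exon bases with Emc9 on the other strand and the other 9 share none with any gene.

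The start regions of 8 of the 10 genes were in the RefSeq promoter table (GRCm38.p6, 250 bases before to 50 after each start). Tap2 and Nlrc5 were not. Motifs were searched on both strands, and a match describes letters only. The core of the interferon-stimulated response element (GAAA, any 2 bases, GAAA) occurred in 3.44% of the 32851 windows of the table, and among these genes at Psme1 and Erap1. TTCNNNGAA, a STAT site, occurred in 8.30% of all windows and at Psmb8. CCAAT, the Y box, occurred in 37.4% of windows and at Psmb9, Tap1 and Tapbp, and the NF-kB consensus in 4.51% and at none of the 8. Psmb9 and Tap1 are read in opposite directions from a shared interval of 225 bases and hold the same CCAAT. Stretches that hold these motifs are printed below on the plus strand with the motif in capitals, except that of Tapbp. They show the start interval shared by Psmb9 and Tap1 and the letters that matched. A gene without a match is not shown to lack such a site. The printed stretches are Psme1 at chr14:55578394-55578512, Erap1 at chr13:74639753-74639863, Psmb8 at chr17:34198065-34198135, and the whole interval between Psmb9 and Tap1 at chr17:34187331-34187555. In Psme1 and Erap1 the motif lies on the minus strand, after the RefSeq start in Psme1 and across it in Erap1. The deposited annotation starts Erap1 further on, at chr13:74639872, so the motif lies before that start.
Psme1: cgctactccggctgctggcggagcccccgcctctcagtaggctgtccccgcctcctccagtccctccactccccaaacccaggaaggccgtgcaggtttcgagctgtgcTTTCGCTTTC
Erap1: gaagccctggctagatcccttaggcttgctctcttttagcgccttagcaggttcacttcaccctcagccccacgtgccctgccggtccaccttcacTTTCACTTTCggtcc
Psmb8: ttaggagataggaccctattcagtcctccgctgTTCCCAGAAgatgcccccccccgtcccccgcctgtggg
Psmb9 and Tap1: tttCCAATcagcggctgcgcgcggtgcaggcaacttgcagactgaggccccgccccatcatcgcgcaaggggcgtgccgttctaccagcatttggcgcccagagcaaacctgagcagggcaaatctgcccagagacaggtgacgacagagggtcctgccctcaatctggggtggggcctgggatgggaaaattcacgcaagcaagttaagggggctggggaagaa

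Libraries held 20751583 to 30460237 counts, and animals of a group varied beyond counting noise, at a chi-squared of 41.7 to 118 per degree of freedom in liver and 8.07 to 17.8 in gastrocnemius. Each of the 10 genes had 220 to 6122 counts in a liver library and 47 to 924 in a gastrocnemius library, and all 10 passed the filter on low counts in both tissues. Hepatocyte and muscle fibre markers fitted the tissue labels: the 8 hepatocyte markers summed to at least 78740 CPM, counts scaled to library size, in liver, and the 8 fibre markers to at most 1.59 CPM there. Mars2 averaged 2.93 ± 0.646 CPM in liver R135W and 2.77 ± 0.627 CPM in liver WT, and 9.45 ± 0.961 CPM in gastrocnemius R135W and 11.7 ± 0.941 CPM in gastrocnemius WT (SD, n = 3 each). A missense change leaves the transcript in place, so its level does not check the genotype labels. In whole tissue, more cells of a type and more RNA per cell cannot be told apart, and this holds for every level below.

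**Figure D1:**
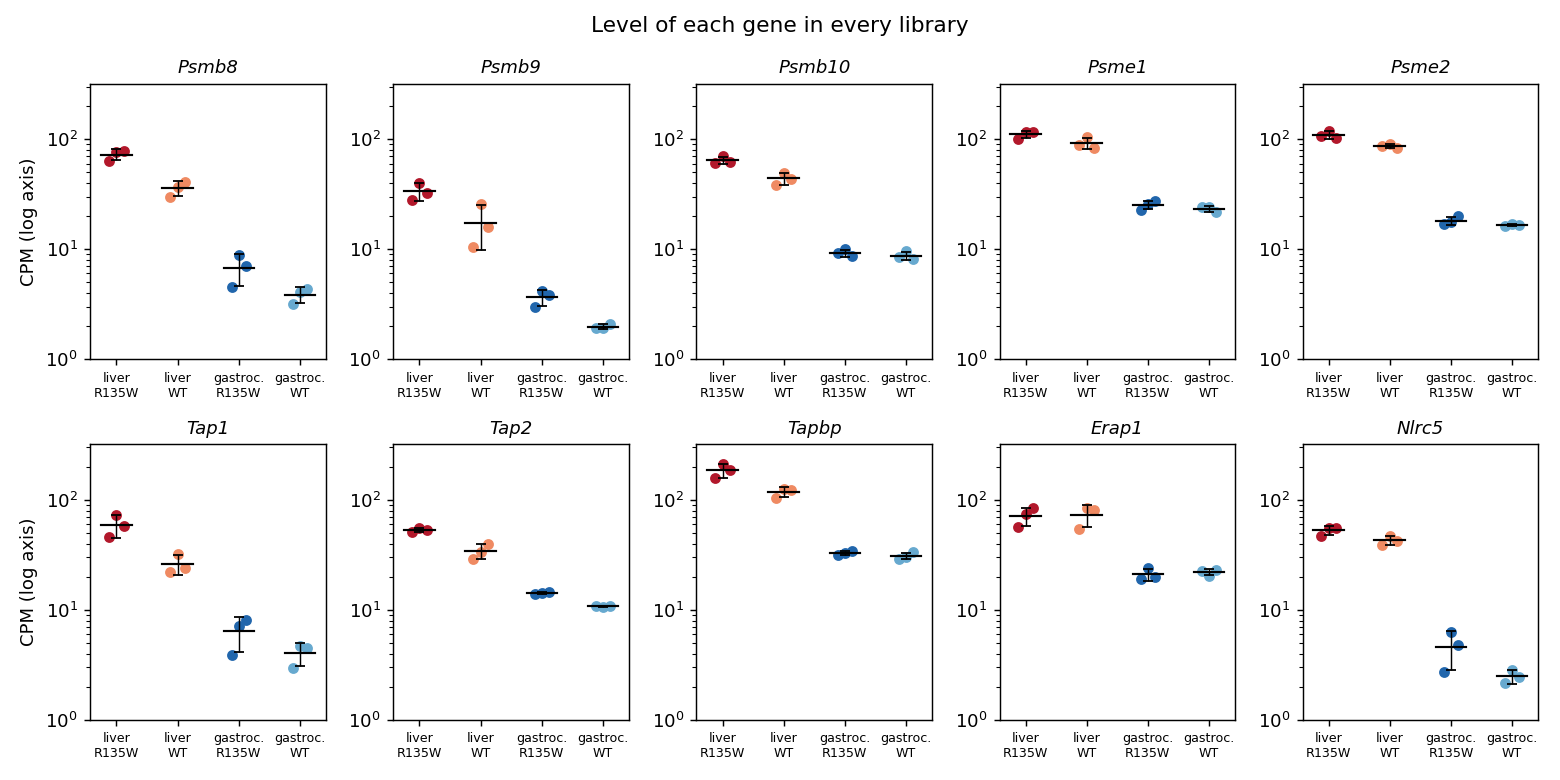
Level of each of the 10 genes in CPM (log axis) in the 12 libraries, with a horizontal line for the mean and bars for the SD of the 3 animals in each group. Every liver library lies above every gastrocnemius library, Psmb8 for instance at 29.6 CPM or more in liver and at 8.80 CPM or less in gastrocnemius.

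WT animals give the resting level of the pathway in the tissues. All 10 genes were higher in WT liver than in WT gastrocnemius in edgeR's quasi-likelihood test on all 12 libraries, against 40.9% of all 15414 genes tested, and 82.1% of genes differed in either direction. Their median log2 difference was 2.31, beside 0.00 over all genes. Nlrc5 differed most, with 42.8 ± 4.16 CPM in WT liver and 2.48 ± 0.344 CPM in WT gastrocnemius (SD, n = 3 each), a log2 difference of 4.05 (SE 0.23, edgeR adjusted p 1.38e-09). The inducible catalytic subunits Psmb8 and Psmb9 followed at 3.16 (SE 0.22) and 3.09 (SE 0.29), and Psmb10 stood at 2.28 (SE 0.11).

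Of the transporter subunits, Tap1 differed between WT liver and WT gastrocnemius by 2.63 (SE 0.27) on the log2 scale and Tap2 by 1.61 (SE 0.11). The PA28 subunits differed by 2.34 (SE 0.09) for Psme2 and 1.93 (SE 0.11) for Psme1, Tapbp by 1.87 (SE 0.12) and Erap1 by 1.69 (SE 0.18). The constitutive subunits did not show this step. Psmb7 was lower in WT liver, with a log2 difference of -0.76 (SE 0.08, edgeR adjusted p 1.50e-06), while Psmb5 (-0.23, SE 0.13) and Psmb6 (0.15, SE 0.13) did not pass the test.

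Levels can be set beside each other between genes only per exon length, given here as TPM, the share of a library's length-corrected counts. Within WT liver the order from high to low was Psme1 (170 ± 20.9 TPM), Psme2 (161 ± 7.78), Tapbp (77.7 ± 8.42), Psmb10 (62.8 ± 7.96), Psmb8 (53.2 ± 8.64), Psmb9 (39.3 ± 17.6), Erap1 (33.3 ± 7.61), Tap2 (24.9 ± 3.89), Tap1 (16.1 ± 3.38) and Nlrc5 (11.2 ± 1.15; SD, n = 3 each). Neighbours in this order overlapped between animals, except Psme2 above Tapbp, Tap2 above Tap1 and Tap1 above Nlrc5. WT gastrocnemius had another order, again led by Psme1 at 53.1 ± 2.23 TPM and Psme2 at 38.0 ± 1.21 TPM. There Psmb8 (7.09 ± 1.19 TPM) and Psmb9 (5.498 ± 0.423 TPM) stood below Erap1 (12.3 ± 1.12 TPM) and Tap2 (9.71 ± 0.431 TPM), and Nlrc5 was lowest at 0.799 ± 0.0930 TPM (SD, n = 3 each).

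R135W was set against WT in each tissue separately, with 6 libraries in each fit. In liver, edgeR's quasi-likelihood test at an adjusted p of 0.05 called 3.28% of 13935 genes, 2.76% as higher in R135W, and 4 of the 10 genes, all higher. Unadjusted p was under 0.05 for 8 of the 10, against 17.6% of all genes. R135W libraries lay wholly above WT libraries for 8 of the 10, all but Psme1 and Erap1, against 13.8% of all genes. The median log2 change of the 10 was 0.59, beside -0.01 over all genes.

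Psmb8, the chymotrypsin-like subunit of the immunoproteasome, had 62.8, 76.8 and 77.3 CPM in liver R135W animals 5, 7 and 12, against 29.6, 37.1 and 40.8 CPM in liver WT animals 6, 8 and 9. The groups were well apart, with every R135W library above every WT library by more than 20 CPM. The log2 change was 1.01 (SE 0.15, edgeR adjusted p 0.0134). Without R135W animal 7 the edgeR adjusted p was 0.0528, and without WT animal 8 it was 0.0572. Psmb9, which takes the place of Psmb6, had 28.1, 40.1 and 32.2 CPM in liver R135W, against 10.5, 25.8 and 16.03 CPM in liver WT. WT animal 8 came within 3 CPM of the lowest R135W animal, and the change of 0.94 (SE 0.29) did not pass in edgeR (adjusted p 0.137) but did in DESeq2 (adjusted p 0.0162). Psmb10, the replacement for Psmb7, had 60.4, 69.6 and 62.3 CPM in liver R135W, against 38.7, 49.3 and 43.7 CPM in liver WT. Its groups did not overlap either, and the change of 0.55 (SE 0.12) was just outside the threshold in edgeR (adjusted p 0.0538) and inside it in DESeq2 (adjusted p 0.0135).

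The PA28 cap moved less. Psme1 had 101.3, 117 and 115 CPM in liver R135W, against 88.2, 104 and 83.0 CPM in liver WT, and WT animal 8 lay above R135W animal 5. Psme2 had 108, 118 and 102 CPM in liver R135W, against 87.3, 90.3 and 82.5 CPM in liver WT, so its groups were apart. Neither passed the edgeR test, with log2 changes of 0.28 (SE 0.13, adjusted p 0.297) for Psme1 and 0.34 (SE 0.11, adjusted p 0.162) for Psme2. Part of the Psme2 sequence has a near copy, Psme2b: 18.4% of 100-base windows of Psme2 transcripts occur in it, and the fragments from them cannot be assigned with certainty. Psme2b itself had only 35 to 84 counts in a liver library.

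Tap1, the TAP subunit that shares its start interval with Psmb9, had 46.0, 73.1 and 57.4 CPM in liver R135W, against 22.1, 32.2 and 24.2 CPM in liver WT. Its log2 change was the highest of the 10 at 1.17 (SE 0.20, edgeR adjusted p 0.0205). Tap2, its partner, had 51.0, 55.7 and 52.7 CPM in liver R135W, against 29.3, 33.3 and 39.8 CPM in liver WT. The R135W animals lay close together, and the change was 0.64 (SE 0.13, edgeR adjusted p 0.0365). Both genes had R135W libraries wholly above WT libraries. With 1 library left out in turn, Tap1 lost its call without R135W animal 7, WT animal 6 or WT animal 9 (edgeR adjusted p 0.0581, 0.0557 and 0.0954). Tap2 lost it without any of the 6, at adjusted p 0.0529 to 0.127, while its change stayed between 0.54 and 0.76.

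Tapbp, the tapasin gene, had 159, 212 and 187 CPM in liver R135W, against 104, 126 and 124 CPM in liver WT, again without overlap. The log2 change was 0.66 (SE 0.14, edgeR adjusted p 0.0464). Left out in turn, each of the 6 libraries ended the call (edgeR adjusted p 0.0513 to 0.148, log2 change 0.55 to 0.76), as did age as a covariate (adjusted p 0.0698). Erap1, the trimming aminopeptidase, had 56.5, 74.1 and 83.7 CPM in liver R135W, against 54.7, 85.3 and 80.6 CPM in liver WT. Its groups overlapped throughout, with a log2 change of -0.04 (SE 0.20, edgeR adjusted p 0.937) whose sign depended on the animals included. Nlrc5 had 47.4, 56.0 and 55.2 CPM in liver R135W, against 39.1, 47.3 and 42.1 CPM in liver WT. R135W animal 5 exceeded WT animal 8 by less than 0.1 CPM, and the change of 0.30 (SE 0.12) did not pass (edgeR adjusted p 0.236).

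**Figure D2:**
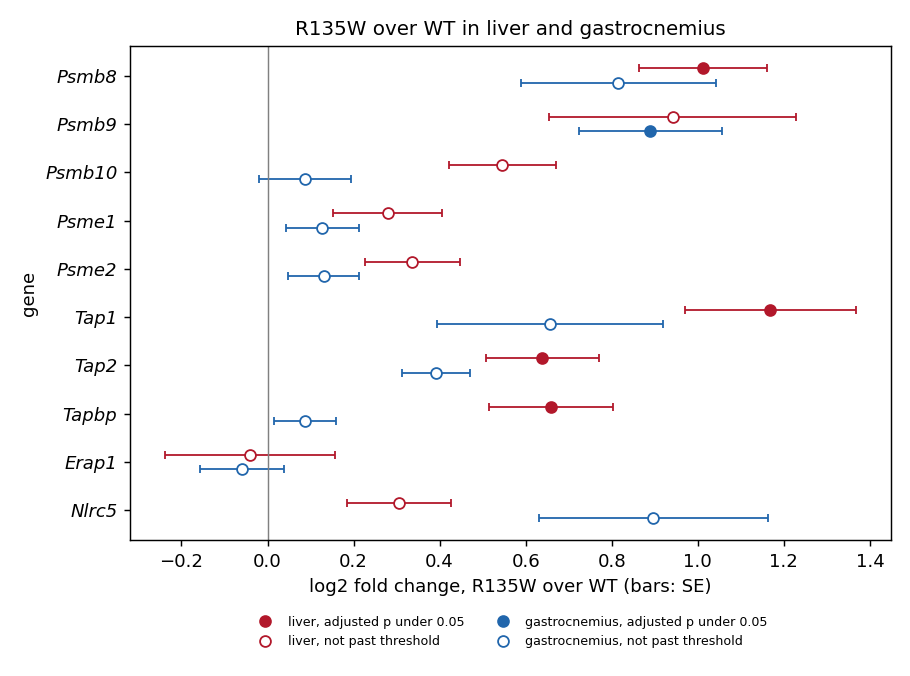
Log2 fold change of R135W over WT for each gene in liver (red) and gastrocnemius (blue), with bars for the SE and filled points for an adjusted p under 0.05 in edgeR's quasi-likelihood test. Psmb8, Tap1, Tap2 and Tapbp are filled in liver and Psmb9 in gastrocnemius; Tapbp and Psmb10 stand at 0.66 and 0.55 in liver and at 0.09 each in gastrocnemius.

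Each inducible catalytic subunit replaces 1 constitutive subunit, so the share of the inducible transcript within its pair, per exon length, gives the balance between them without depending on the scaling of libraries. Over the 3 pairs together, the inducible subunits made up 28.9%, 34.2% and 33.5% of catalytic transcripts in liver R135W animals 5, 7 and 12, against 14.1%, 24.5% and 20.4% in liver WT animals 6, 8 and 9. All R135W animals lay above all WT animals. Means were 32.2% ± 2.88 in liver R135W and 19.7% ± 5.23 in liver WT (SD, n = 3 each), a difference of 12.5 percentage points with an exact two-sided permutation p of 0.10, the smallest that 3 against 3 allows.

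By pair, Psmb8 made up 33.4% ± 3.98 of itself and Psmb5 in liver R135W and 19.2% ± 4.98 in liver WT. Psmb10 made up 33.5% ± 1.37 of its pair with Psmb7 in liver R135W and 22.7% ± 2.41 in liver WT (SD, n = 3 each; exact permutation p 0.10 for both pairs). Psmb9 made up 29.4% ± 4.72 of its pair with Psmb6 in liver R135W and 16.9% ± 8.45 in liver WT, and its groups overlapped (exact permutation p 0.20). In gastrocnemius the summed share was 3.11%, 4.30% and 3.69% in R135W, against 2.66%, 2.99% and 2.77% in WT, a difference of 0.891 percentage points without overlap (exact permutation p 0.10). Psmb9 made up 4.17% ± 0.823 of its pair in gastrocnemius R135W and 2.49% ± 0.0850 in gastrocnemius WT, whereas Psmb10 made up 3.60% ± 0.0949 in gastrocnemius R135W and 3.44% ± 0.281 in gastrocnemius WT (SD, n = 3 each; exact permutation p 0.10 for Psmb9 and 0.40 for Psmb10). Psmb5 shares 12.5% of its exon bases with Mir686, which lies inside it on the same strand.

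**Figure D3:**
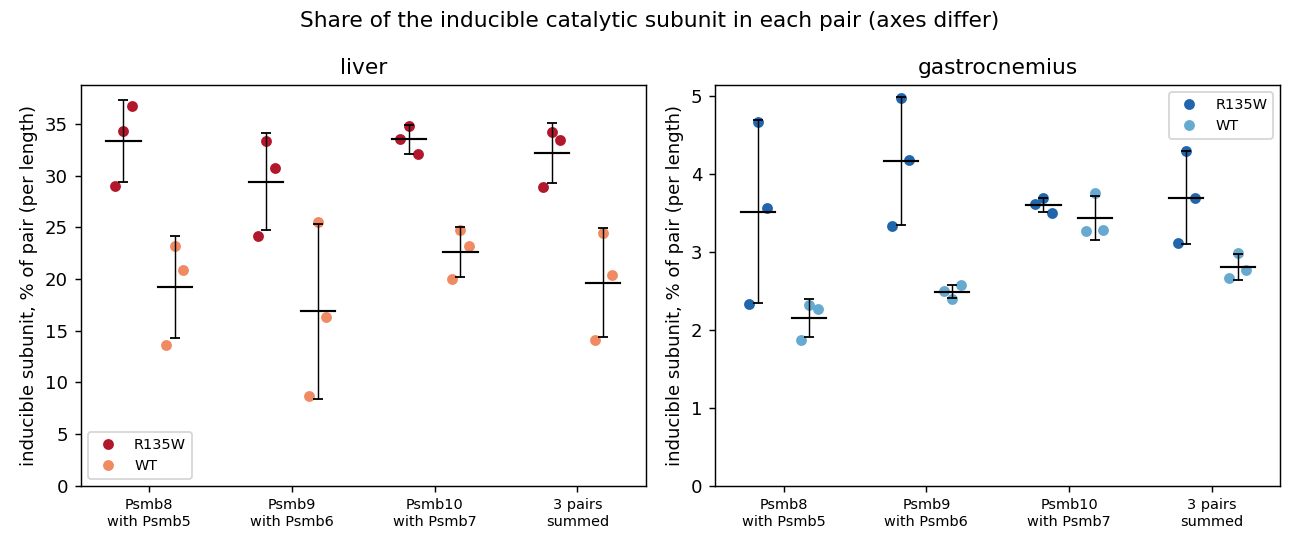
Share of the inducible catalytic subunit within each pair, in percent of per-length counts, for R135W (left of each pair) and WT animals in liver and gastrocnemius; points are animals, lines the mean and bars the SD, and the vertical axes differ. In liver the summed share runs from 28.9% to 34.2% in R135W and from 14.1% to 24.5% in WT; in gastrocnemius every share is under 5%.

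No constitutive catalytic subunit passed the test in liver. Psmb5 averaged 103 ± 7.52 CPM in liver R135W and 110 ± 22.9 CPM in liver WT, and Psmb6 103 ± 10.03 CPM in liver R135W and 115 ± 24.4 CPM in liver WT (SD, n = 3 each). Psmb7 had 97.0 ± 5.04 CPM in liver R135W and 114 ± 3.93 CPM in liver WT, with R135W libraries wholly below WT libraries but a log2 change of -0.24 (SE 0.11) that did not pass (edgeR adjusted p 0.288). None of these 3 passed in gastrocnemius, where their changes were 0.02 to 0.13.

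In gastrocnemius, edgeR called 0.875% of 13826 genes, 0.542% as higher in R135W, and 1 of the 10 genes. Unadjusted p was under 0.05 for 5 of the 10, against 11.5% of all genes. R135W libraries lay wholly above WT libraries for 4 of them, Psmb8, Psmb9, Psme2 and Tap2, against 8.24% of all genes. The median log2 change was 0.26, beside 0.00 over all genes.

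Psmb9, the gene that passed, had 2.96, 4.14 and 3.85 CPM in gastrocnemius R135W animals 5, 7 and 12, against 1.91, 1.92 and 2.09 CPM in gastrocnemius WT animals 6, 8 and 9. The WT animals lay within 0.2 CPM of each other and all R135W animals above them, at 71 to 112 counts a library in R135W and 47 to 55 in WT. The log2 change was 0.89 (SE 0.17, edgeR adjusted p 0.0483). This call rested close to the threshold. The edgeR adjusted p was 0.0242 without R135W animal 5 and 0.103 to 0.222 without R135W animal 7 or 12 or WT animal 6, 8 or 9, where the change was 0.79 to 0.93. It was 0.0645 in limma-voom, 0.0502 with a filter of 1 CPM, and 0.555 in the fit of all 12 libraries.

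Psmb8 had 4.54, 8.80 and 7.04 CPM in gastrocnemius R135W, against 3.17, 4.05 and 4.37 CPM in gastrocnemius WT, and R135W animal 5 stood only just above the highest WT animal. Its change of 0.82 (SE 0.23) did not pass in edgeR (adjusted p 0.184) but did in DESeq2 (adjusted p 0.0221). Nlrc5 had 2.75, 6.25 and 4.81 CPM in gastrocnemius R135W, against 2.16, 2.84 and 2.43 CPM in gastrocnemius WT. R135W animal 5 lay among the WT animals, and the change of 0.90 (SE 0.27) did not pass in edgeR (adjusted p 0.215) but did in DESeq2 (adjusted p 0.0466). Without that animal both passed in edgeR, Psmb8 at 1.03 (adjusted p 0.0357) and Nlrc5 at 1.16 (adjusted p 0.0273). Of the 6 libraries left out in turn, it was the only 1 whose removal called either gene. Animal 5 had the lowest R135W level of both genes, so leaving it out must raise their changes. Tap1 had 3.91, 7.06 and 8.15 CPM in gastrocnemius R135W, against 2.93, 4.68 and 4.52 CPM in gastrocnemius WT. Animal 5 again lay among the WT animals, and the change was 0.66 (SE 0.26, edgeR adjusted p 0.371).

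Tap2 was the steadiest of the 10 in muscle, with 13.8, 14.2 and 14.4 CPM in gastrocnemius R135W, against 10.9, 10.6 and 10.8 CPM in gastrocnemius WT. The groups were apart by more than 2 CPM with less than 1 CPM between animals of a group, and the change of 0.39 (SE 0.08) missed the threshold (edgeR adjusted p 0.0583). Psmb10, Psme1, Psme2, Tapbp and Erap1 had changes of -0.06 to 0.13 in gastrocnemius, with edgeR adjusted p of 0.605 to 0.880. Psmb10, for instance, had 9.16, 9.94 and 8.59 CPM in gastrocnemius R135W, against 8.46, 9.55 and 8.06 CPM in gastrocnemius WT. Tapbp had 31.6, 32.8 and 34.2 CPM in gastrocnemius R135W, against 29.2, 30.4 and 33.3 CPM in gastrocnemius WT.

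Whether the R135W effect differed between liver and gastrocnemius was tested as an interaction in the fit of all 12 libraries, which called 0.13% of 15414 genes. None of the 10 genes was called by edgeR, DESeq2 or limma-voom, and unadjusted p was under 0.05 in edgeR for 2 of the 10, against 9.95% of all genes. These were Tapbp, whose effect was larger in liver by 0.56 (SE 0.16, edgeR adjusted p 0.230), and Psmb10, larger in liver by 0.45 (SE 0.16, adjusted p 0.348). Nlrc5 differed the other way by -0.60 (SE 0.30, edgeR adjusted p 0.537). For Psmb8 and Psmb9 the liver effect exceeded the gastrocnemius effect by 0.19 (SE 0.29) and 0.04 (SE 0.41), and for Tap1 by 0.50 (SE 0.37). The call of 4 genes in liver and 1 in gastrocnemius is therefore not shown to be a difference between tissues.

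**Figure D4:**
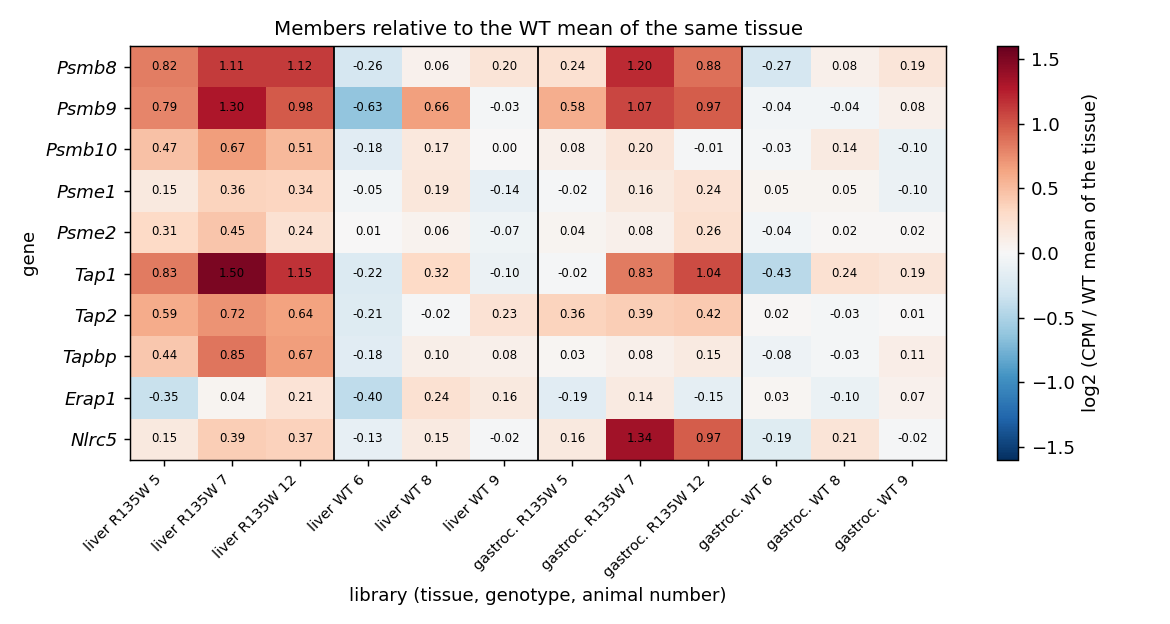
Log2 of each gene's CPM over the WT mean of the same tissue, for the 12 libraries (columns) and 10 genes (rows), with red for higher and blue for lower. R135W animal 5 has the palest R135W columns in both tissues, with a mean over the 10 genes of 0.42 in liver and 0.13 in gastrocnemius, and the Erap1 row has no block of 1 colour.

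With title numbers taken to mark the animal, which the data themselves do not show, the same R135W animal was lowest in both tissues. Animal 5 had the lowest level of its group for 9 of the 10 genes in liver and for 9 of the 10 in gastrocnemius. The share of all genes with their lowest level in animal 5 was not counted. The mean log2 level of the 10 genes over the WT mean was 0.42, 0.74 and 0.62 in liver R135W animals 5, 7 and 12, against -0.22, 0.19 and 0.03 in liver WT animals 6, 8 and 9. In gastrocnemius it was 0.13, 0.55 and 0.48 in R135W, against -0.10, 0.05 and 0.05 in WT. Animal 6 was lowest of the WT group for 8 genes in liver and 6 in gastrocnemius. Animals 5 and 6 were both 9.0 weeks old, as was WT animal 8, which had the highest level of its group for 8 genes in liver. R135W animals 7 and 12, whose means were above that of animal 5 in both tissues, were 7.4 and 8.6 weeks old. Among R135W animals the mean thus fell with age in both tissues. The part of age in the order of animals was not tested.

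The genes whose levels followed the mean of the 10 most closely over the 12 libraries, by mean absolute log2 difference after centring on WT, were Parp10 (0.0692), Tspan9 (0.0898), Fam111a (0.104), Tcirg1 (0.104) and Mvb12b (0.105), out of 12400 candidates. Parp10 changed by 0.63 in liver (edgeR adjusted p 0.0401) and by 0.47 in gastrocnemius (adjusted p 0.146). Of the 10 themselves, Tap2 (0.110) and Tapbp (0.118) lay nearest to this mean, and Erap1 (0.325) and Psmb9 (0.323) farthest from it.

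The other parts of the proteasome were counted with the same tests. In liver, edgeR called 0 of 11 other core subunits (1 at an unadjusted p under 0.05), 0 of 18 subunits of the 19S regulator (0 unadjusted) and 0 of 8 other activators and assembly factors (0 unadjusted), with median log2 changes of -0.09, -0.04 and -0.03. In gastrocnemius the counts were 0 of 11, 0 of 18 and 0 of 8, with 0 at an unadjusted p under 0.05 in each. DESeq2 and limma-voom also called 0 in all 6 of these counts. Of all genes, edgeR called 3.28% in liver and 0.875% in gastrocnemius, and 17.6% and 11.5% had an unadjusted p under 0.05. With so few genes called anywhere, 0 calls do not set these lists apart from other genes. Psma2, a core alpha subunit, was the one with the smallest p in liver, at -0.27 (SE 0.11, edgeR adjusted p 0.238).

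Among 16 other genes of loading and trimming, edgeR called 2 as higher in liver R135W, the class I heavy chain H2-D1 (0.90, SE 0.14, adjusted p 0.0154) and the nonclassical heavy chain H2-T23 (0.91, SE 0.19, adjusted p 0.0411). H2-D1 shares 61.1% of its exon bases with H2-L and its fragments are counted for both. In gastrocnemius R135W it called 4 of the 16 as higher: H2-K1 (0.73, SE 0.13, adjusted p 0.0438), H2-T23 (0.70, SE 0.13, adjusted p 0.0422), B2m, the class I light chain (0.70, SE 0.13, adjusted p 0.0489), and H2-D1 (0.54, SE 0.10, adjusted p 0.0489). Over all genes, edgeR called 2.76% as higher in liver R135W and 0.542% as higher in gastrocnemius R135W. DESeq2 called 4 of the 16 in liver and 4 in gastrocnemius, and limma-voom 2 in liver and 1 in gastrocnemius. Medians over the 16 were 0.13 in liver and 0.00 in gastrocnemius. These lists were chosen with results of these data known, and their counts are a description.

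Of 9 genes of the class I enhanceosome, on which Nlrc5 acts, together with the class II transactivator Ciita, edgeR, DESeq2 and limma-voom called 0 in either tissue, with 0 at an unadjusted p under 0.05 in edgeR. Of all genes, edgeR called 3.28% in liver and 0.875% in gastrocnemius, and 17.6% and 11.5% had an unadjusted p under 0.05. A count of 0 of 9 called lies near those shares of called genes. Ciita had a change of 0.51 (SE 0.24, edgeR adjusted p 0.303) in liver and -0.19 (SE 0.20, adjusted p 0.788) in gastrocnemius. Among interferon receptor and signalling genes, the interferon regulatory factors Irf8 (0.70, SE 0.14, edgeR adjusted p 0.0347) and Irf9 (0.55, SE 0.11, adjusted p 0.0351) rose in liver R135W. Irf2, a factor that represses and activates interferon-responsive promoters, fell by 0.67 (SE 0.13, edgeR adjusted p 0.0323). In gastrocnemius 1 of 13 tested genes rose, against 0.542% of all genes. It was Stat2 (0.70, SE 0.13, edgeR adjusted p 0.0430), a partner of Irf9 in the complex that type I interferon activates. DESeq2 called 2 genes of the list there and limma-voom 1. The interferon genes Ifng, Ifnb1 and Ifna4 had at most 5 counts in a library and were not tested in either tissue.

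**Figure D5:**
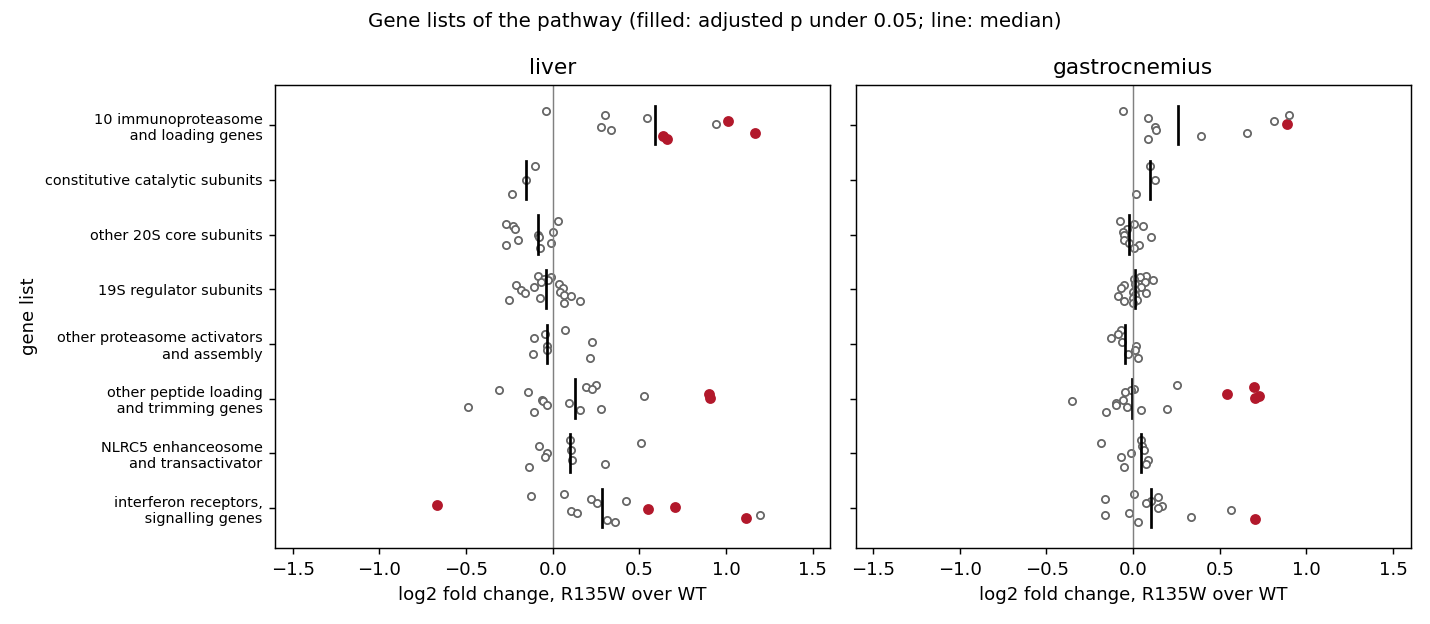
Log2 fold change of R135W over WT for every gene of the 10 and of 7 related lists, in liver and gastrocnemius; filled points passed edgeR's test at an adjusted p of 0.05 and vertical lines are medians. The median of the 10 genes is 0.59 in liver and 0.26 in gastrocnemius, and the constitutive catalytic subunits stand at -0.15 and 0.10.

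Markers of immune cells, which express the immunoproteasome, moved with genotype in liver. Of 12 Kupffer cell and macrophage markers, 11 rose in liver R135W (edgeR), with a median log2 change of 1.08 and summed levels of 987 to 1061 CPM in liver R135W and 361 to 577 CPM in liver WT. Monocyte and dendritic cell markers (2 of 8 tested higher) summed to 17.6 to 22.4 CPM in liver R135W and 11.3 to 13.5 CPM in liver WT. NK cell markers (1 of 4 tested higher, Gzmb) summed to 4.35 to 5.90 CPM in liver R135W and 2.88 to 3.24 CPM in liver WT. T cell markers summed to 7.61 to 8.29 CPM in liver R135W and 5.07 to 5.87 CPM in liver WT, B cell markers to 8.46 to 13.4 CPM in liver R135W and 4.72 to 7.85 CPM in liver WT, and neutrophil markers to 10.02 to 15.2 CPM in liver R135W and 4.93 to 7.57 CPM in liver WT. None of the 6 T cell, 4 B cell and 4 neutrophil markers tested passed in edgeR, though 3 of each had an unadjusted p under 0.05. DESeq2 called 0 of the T cell, 1 of the B cell and 2 of the neutrophil markers, and limma-voom 0 of each of these. Of the macrophage, monocyte and dendritic cell, and NK cell markers, DESeq2 called 11, 2 and 1 and limma-voom 10, 2 and 0. Of all genes in liver, edgeR called 2.76% as higher, and 17.6% had an unadjusted p under 0.05. Hepatocyte markers (0 of 8 in edgeR, 2 unadjusted, 2 in DESeq2, 0 in limma-voom) summed to 78740 to 84660 CPM in liver R135W and 99690 to 100300 CPM in liver WT. No marker of these 7 lists was at 0 in all 3 libraries of a liver group. The part of these cells in the liver values of the 10 genes was not tested.

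In gastrocnemius, 0 of 7 tested macrophage markers passed in edgeR, DESeq2 or limma-voom, with 0 at an unadjusted p under 0.05. Their list summed to 40.3 to 51.9 CPM in gastrocnemius R135W and 38.4 to 44.8 CPM in gastrocnemius WT, with Vsig4 at 0 in all 3 R135W libraries. Of 7 endothelial markers 1, Kdr, rose in gastrocnemius R135W in edgeR and limma-voom and 2 passed in DESeq2. Of all genes, edgeR called 0.542% as higher in gastrocnemius R135W. An unadjusted p under 0.05 in edgeR was found for 5 of the 7 endothelial markers, against 11.5% of all genes. Their log2 changes ran from -0.36 to 0.77, with 5 positive. Stab2 averaged 5.43 CPM in gastrocnemius R135W and 6.93 CPM in gastrocnemius WT, and Lyve1 3.56 and 4.53 CPM. The endothelial list summed to 247 to 264 CPM in gastrocnemius R135W and 194 to 213 CPM in gastrocnemius WT. NK cell markers, none of which passed the filter on low counts there, summed to 0.333 to 0.407 CPM in gastrocnemius R135W and 0.152 to 0.213 CPM in gastrocnemius WT, with Ncr1, Klrb1c and Eomes at 0 in all 3 WT libraries. The part of both cell types in the gastrocnemius values of the 10 genes was not tested. Summed T cell, B cell, neutrophil, and monocyte and dendritic cell markers overlapped between genotypes in gastrocnemius. The gastrocnemius library of R135W animal 12 held 28.6 CPM of the liver transcript Alb, 0.0537% of the lowest liver level. The same share of the highest liver level of each of the 10 genes comes to 0.0215 to 0.114 CPM, for Psmb8 to 0.0415 CPM of the 7.04 CPM measured there.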

How the data were processed

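Poly(A) RNA of 12 libraries was measured. Reads were aligned with STAR 2.4.0 and counted with featureCounts 1.5.2, per the submitters' processing notes; the deposited raw counts per gene are of read pairs over exons of the UCSC mm10 annotation, primary alignments only, without a strand option and with a fragment counted for every gene it overlaps, per the file headers. The counts carry no normalization. The deposited exon lengths served for TPM.

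Genotype was tested within each tissue with edgeR 4.0.16 in R 4.3.3 (TMM, filterByExpr by group, quasi-likelihood F test, Benjamini-Hochberg over all tested genes, threshold 0.05). The tissue difference and the interaction used 12 libraries in 4 groups. CPM use TMM-scaled library sizes. SE is the log2 fold change over the square root of F. Groups came from the genotype and tissue labels. Title numbers, with matching age and genotype, were taken to mark the animal that gave both tissues; same-numbered libraries deviated from their group means with correlations of -0.000714 to 0.0957 across genes, so the data themselves show no pairing, and a fit with the animal as a block was run as an alternative.

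The members and lists were chosen with earlier results of these data known. All 10 genes are named; other lists give up to 4 called genes, or up to 2 with the smallest p. The test was checked on simulated counts. Alternatives were RLE factors, DESeq2 1.42.0, limma-voom (limma 3.58.1), other filters, age, a joint fit, and leaving out each library. Protein sequences were not used here, and a gene of the interferon list is not reported here.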

Additional observations from a re-analysis of the deposited data

How the results depend on the processing

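The count of genes called in liver was 4 of 10. It was 7 in the fit of all 12 libraries, 6 with DESeq2, which added Psmb9 and Psmb10, 5 with a filter of 1 CPM in 3 libraries, 3 with age as a covariate, and 0 to 2 when 1 library was left out (0 without R135W animal 7, 2 without R135W animal 5 or 12, and 1 without WT animal 6, 8 or 9). In gastrocnemius, where 1 was called, it was 3 with DESeq2, 0 with limma-voom, 0 with a filter of 1 CPM in 3 libraries, 0 in the fit of all 12 libraries, and 0 to 3 with 1 library left out (3 without R135W animal 5 and 0 without any other). The share of all genes called under each alternative is not given here. A higher count is therefore not shown to be particular to the 10 genes. Leaving out a library also takes away samples, and otherwise the cause was not tested. The difference between tissues had 0 calls and the WT comparison 10 in every alternative run, 0 and 10 with the animal as a replicate block too. The block was run for these tissue comparisons only, since genotypes share no animal. The difference in summed immunoproteasome share was 9.75 to 14.95 percentage points in liver and 0.592 to 1.19 in gastrocnemius with 1 library left out.

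Signs turned for values near 0 when 1 library was left out. Erap1 then had log2 changes of -0.22 to 0.10 in liver (-0.04 with all libraries) and -0.17 to 0.0042 in gastrocnemius (-0.06). The difference between tissues ran from -0.17 to 0.15 for Erap1 (0.01), from -0.22 to 0.43 for Psmb9 (0.04) and from -0.035 to 0.42 for Psmb8 (0.19). That for Erap1 was also -0.0033 with RLE factors and -0.0032 with DESeq2. The cause was not tested.

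With 3 animals a group, the exact permutation test cannot go below 0.10, and calls near the threshold in gastrocnemius rest on 47 to 112 counts a library for Psmb9. Genes with unresolved changes are not shown to be equal between genotypes.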

Other observations

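In WT animals the other parts of the proteasome differed between tissues in both directions. Most genes did: 82.1% of all 15414 genes tested differed between WT liver and WT gastrocnemius, and 40.9% were higher in WT liver. The counts below are to be read beside these shares. In edgeR's test, 0 of 18 subunits of the 19S regulator, the cap that binds ubiquitinated proteins, were higher in WT liver than in WT gastrocnemius and 13 were lower, with a median log2 difference of -0.45; Psmd7 stood at -1.26 (SE 0.08). Psme4, the PA200 activator, had a log2 difference of -2.13 between WT liver and WT gastrocnemius (SE 0.12), with 23.8 ± 2.67 TPM in WT liver and 125 ± 12.5 TPM in WT gastrocnemius (SD, n = 3 each). It belongs to a list of 8 other activators and assembly factors, of which 5 were higher and 3 lower in WT liver (median 0.82); Psmg1, an assembly chaperone, stood at 1.11 (SE 0.10). Of 11 other core subunits, 7 were higher and 1 was lower in WT liver, with a median of 0.32. The class I chains B2m, H2-K1 and H2-T23 were higher in WT liver by 5.15 (SE 0.22), 4.71 (SE 0.18) and 4.66 (SE 0.20).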
